A study of Rattus norvegicus with 24 samples.

Results

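Complement components and regulators were described in soleus, a calf muscle for standing that is rich in slow fibres, by the array probes that carry the name of 1 of 9 genes: C6, C7, Clu, C1r, C1s, Serping1, C2, Cfb and C3. All 9 genes had a probe, and they held 11 of 30367 probes, since C2 and C7 had 2 each. The named genes on the array numbered 20024. The genes were grouped by the pathway they belong to, and C6 and Clu had been noted for their difference between trained and sedentary muscle. Values of the trained against sedentary comparison are therefore given as a description, with no test.

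Female rats about 14 weeks old gave 1 array each, with 8 rats per group. Sedentary rats (SED) had 8 weeks of ordinary cage life. Trained rats (TR) had free use of a running wheel for all 8 weeks, and detrained rats (DETR) had it for 4 weeks followed by 4 weeks without. Rats of all 3 groups then ran for 1 h in a driven wheel at 20 m/min, and the muscle was frozen 24 h afterwards. The groups thus share that bout, and resting muscle was not analysed here. RNA came from a chunk of the middle of the muscle, so it holds every cell type of the chunk. In such bulk samples, fewer cells of a type and less RNA per cell cannot be told apart. The strain and the distance run are not given in the labels.

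Complement is a cascade of plasma proteins that marks and attacks cells and microbes. In the classical pathway C1q binds its target and switches on the proteases C1r and C1s, which cut C4 and C2 to form a C3-cleaving enzyme. The alternative pathway forms such an enzyme from C3 and factor B, the product of Cfb. C5, C6, C7, C8 and C9 then assemble into the membrane attack complex. The C1 inhibitor (Serping1) blocks C1r and C1s, and clusterin (Clu), a secreted chaperone, binds the forming attack complex. Liver makes most of the plasma proteins, while macrophages, fibroblasts, endothelial cells and adipocytes make several of them locally, and C1q comes largely from macrophages.

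Promoter sequence of 3 of the 9 genes (C6, C1r and C3) was found in the RefSeq promoter table of assembly GRCr8, which gives 250 bases before and 50 after each annotated start. Sequences are shown for C6, the gene with the largest difference between trained and sedentary muscle, and for C1r, a gene whose values varied with those of C1s and C7. Capitals mark matches to TTGCNNAA, a pattern of the C/EBP factors that act on many liver and inflammation genes, and to the TATA box TATAAA. The C6 window lies at chr2:55573383-55573682 and the C1r window at chr4:159098763-159099062, both on the plus strand.
C6: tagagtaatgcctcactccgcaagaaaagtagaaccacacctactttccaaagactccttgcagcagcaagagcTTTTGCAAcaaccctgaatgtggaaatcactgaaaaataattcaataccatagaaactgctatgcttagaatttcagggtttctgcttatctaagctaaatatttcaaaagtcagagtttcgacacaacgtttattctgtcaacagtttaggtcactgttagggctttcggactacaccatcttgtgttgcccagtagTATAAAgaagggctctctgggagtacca
C1r: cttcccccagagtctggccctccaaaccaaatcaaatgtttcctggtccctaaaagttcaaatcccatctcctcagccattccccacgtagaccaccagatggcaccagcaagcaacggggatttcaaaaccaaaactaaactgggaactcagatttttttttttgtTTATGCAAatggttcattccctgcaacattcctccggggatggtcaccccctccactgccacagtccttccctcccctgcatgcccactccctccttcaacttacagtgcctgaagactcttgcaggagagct
The C6 window held 1 match to TTGCNNAA, at -176 from the annotated start, and a TATAAA at 23 bases past it, which do not overlap. The C1r window held 1 match to TTGCNNAA, at -83. The C3 window, not shown, also held 1, at -104. Searched on both strands, TTGCNNAA occurred in 10.6% of the 33469 promoters in the table and TATAAA in 14.2%. None of the 3 windows held GAANNTTC (a pair of heat shock element units, in 8.59% of promoters), TTCNNNGAA (the interferon gamma-activated site, in 8.87%) or the core of the interferon-stimulated response element (in 3.92%). These are matches of letters and not measured binding sites. In the RefSeq order of coding genes C1rl, C1r and C1s lie side by side, C2 is next to Cfb, and only Mroh2b lies between C6 and C7.

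The arrays lay on 3 slides of 8, and the slides held different mixes of groups. There were 6 DETR and 2 SED arrays on slide 1, 4 of each of TR and SED on slide 2, and 4 TR with 2 each of DETR and SED on slide 3, the only slide shared by TR and DETR. The 75th percentile of signal, by which each array was scaled, lay at 562.3 to 1493 on slides 1 and 2 and was lower on slide 3 (95.5 to 339). On slide 3 it was 133.2, 95.5 and 124.5 for TR 5, TR 7 and TR 8, and 306.5 for TR 6. The SED and DETR arrays there lay at 185.6 to 338.8. Brightness on slide 3 thus differed with group, which a slide term does not remove, and the 2 cannot be fully told apart there. Spots of 1 probe varied most on TR 2 (median coefficient of variation 24.4%, against 4.51% to 12.7% on the other 23 arrays). Levels are log2 signals relative to the 75th percentile of the array. Each difference is on the log2 scale and carries the standard error (SE) of a limma model over all 24 arrays with group and slide as terms, so they need not equal the difference of the plain group means. No level of a gene is set against that of another gene. All 9 genes passed the filter on dim probes, and the probes of 8 were well above background on all 24 arrays. C3 was well above background on 19 arrays (7 SED, 7 DETR and 5 TR).

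C6, a component that the attack complex needs to form, differed most among the 9 genes between trained and sedentary muscle. Its level had a lowest, median and highest value of -2.89, -1.94 and -0.91 in SED, of -2.29, -1.69 and -1.28 in DETR, and of -2.37, -0.39 and 0.05 in TR. In TR, 5 arrays lay above every SED array, and the other 3 lay inside the SED range; the DETR range lay wholly inside that of SED. On slide 2 the groups were apart, with the 4 TR arrays at -0.16 to 0.05 and the 4 SED arrays at -1.96 to -0.91. On slide 3 they overlapped, with TR at -2.37 to -0.62 and SED at -2.89 and -2.16. The difference, TR minus SED, was 1.19 ± 0.23, a 2.28-fold higher signal, and it was 1.40 within slide 2 and 1.03 within slide 3. It ranked 37th from the top of 20324 features by size, a place that follows from C6 having been noted for this difference. Leaving out each array in turn gave 1.08 to 1.33.

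Detrained muscle lay between the other groups for C6 in the model. DETR minus SED was 0.50 ± 0.26 (95% interval -0.04 to 1.04, unadjusted p = 0.0693, limma), with 0.29 within slide 1 and 0.60 within slide 3, and it was 0.10 without the slide term. TR minus DETR was 0.69 ± 0.29 (95% interval 0.09 to 1.30), with unadjusted p = 0.0264 and adjusted p = 0.476 in limma. That comparison shares the TR arrays with the one in which C6 was noted. Within slide 3, where both groups were present, it was 0.43.

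C7, which joins C6 in the attack complex, had levels of -0.83, 0.03 and 0.80 (lowest, median, highest) in SED, -0.87, 0.25 and 1.09 in DETR and -0.80, 0.26 and 1.45 in TR. The 3 ranges overlapped almost wholly, and the slide 3 arrays were the lowest of SED and of DETR. With slide in the model TR was higher than SED by 0.67 ± 0.23 and higher than DETR by 0.82 ± 0.29 (unadjusted p = 0.0107, adjusted p = 0.423, limma). DETR minus SED was -0.15 ± 0.26. Without the slide term TR minus SED was 0.36 ± 0.31 and TR minus DETR 0.24 ± 0.31. The other C7 probe gave smaller differences, 0.09 ± 0.19 for TR minus SED and 0.15 ± 0.25 for TR minus DETR. Over the 24 arrays the pair of C7 probes correlated at r = 0.57 once slide means were removed and at -0.17 before, as their levels shifted in opposite directions on slide 3 (-0.38 ± 0.62 against 0.46 and 0.38 on slides 1 and 2 for the main probe, and -1.74 ± 0.51 against -2.78 and -2.40 for the other; mean ± SD, n = 8).

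With slide in the model Clu was the 1 gene of the 9 with a lower value in trained than in sedentary muscle; without the slide term C1r (-0.12) and Serping1 (-0.14) were lower too. Its level was 1.24, 1.76 and 2.16 (lowest, median, highest) in SED, 1.30, 1.62 and 2.06 in DETR and 0.80, 1.03 and 1.91 in TR. In TR, 6 arrays lay below every SED and DETR array, and TR 7 and TR 8, at 1.91 and 1.83, lay among them. TR minus SED was -0.62 ± 0.17, a signal 0.652 times that of SED. The difference was -0.93 within slide 2, where the 4 TR arrays (0.80 to 0.98) lay below the 4 SED arrays (1.24 to 2.16), and -0.12 within slide 3, where the groups overlapped. Leaving out each array in turn gave -0.75 to -0.53, and leaving out TR 2, TR 5, TR 7 and TR 8, the noisiest or dimmest trained arrays, gave -0.83.

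Detrained minus sedentary muscle gave -0.05 ± 0.19 for Clu (95% interval -0.45 to 0.35). TR minus DETR was -0.57 ± 0.21 (95% interval -1.01 to -0.12, unadjusted p = 0.0147, adjusted p = 0.444, limma), and it was -0.44 within slide 3. That comparison shares the TR arrays with the one in which Clu was noted. With each array weighted by its own spread, TR minus DETR was -0.92 ± 0.18 with adjusted p = 0.0261 in limma. That setting called 160 of 20324 features in this comparison, against 0 in the main fit. Over the 13 alternatives the adjusted p of the Clu difference, TR minus DETR, ran from 0.0261 to 0.847.

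**Figure D1:**
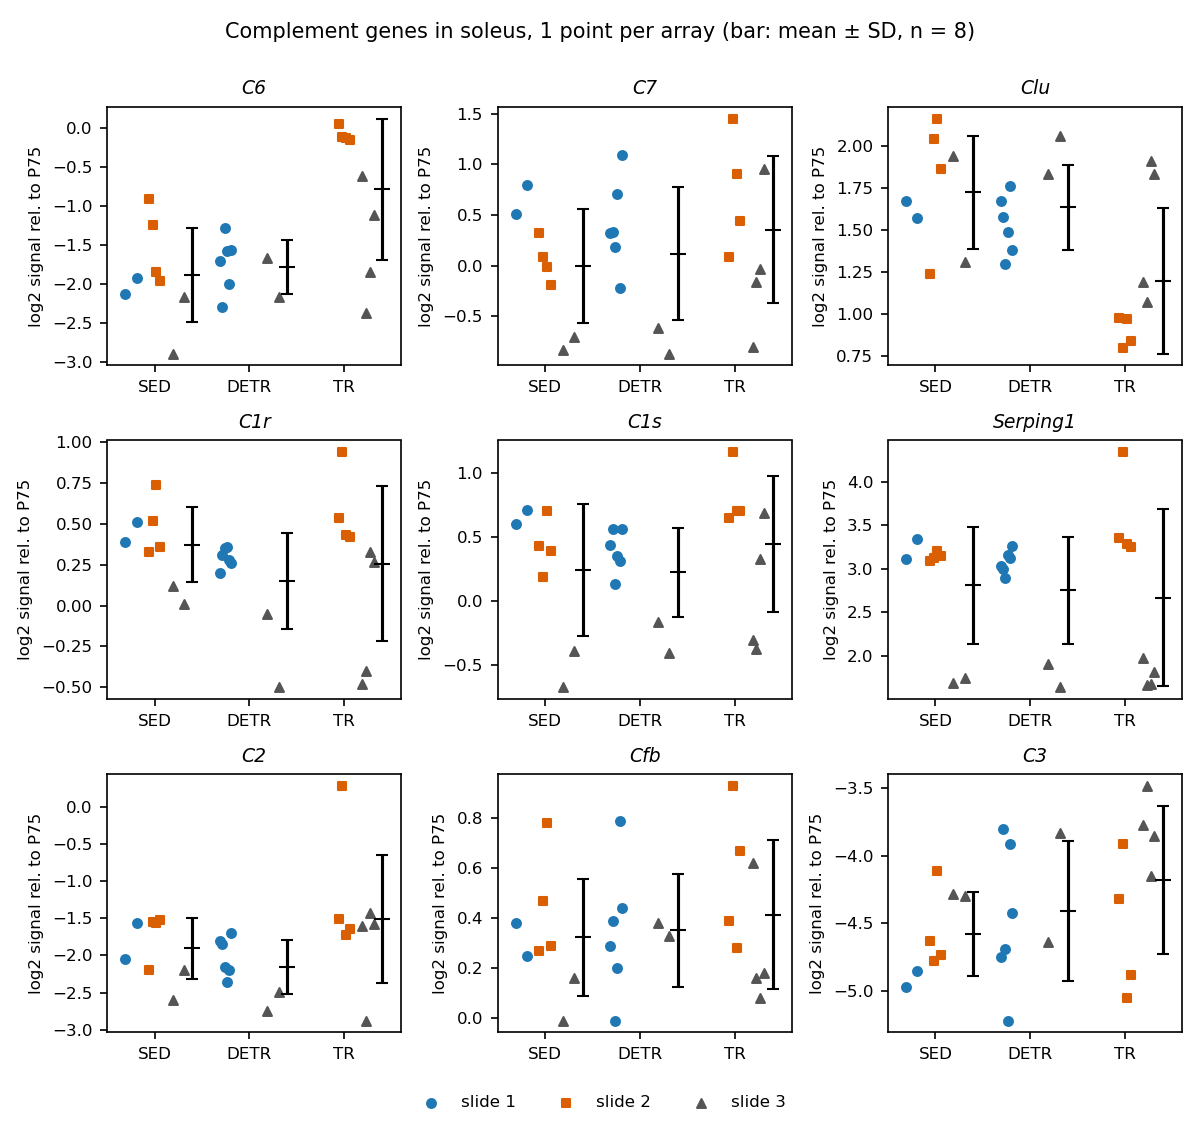
Level of each complement gene (log2 signal relative to the array's 75th percentile, vertical axis) in every array by group (SED, DETR, TR), with symbols for the slide and bars for the mean ± SD (n = 8). On slide 2 the 4 TR arrays sit above the 4 SED arrays for C6 and below them for Clu, while for Serping1 the 8 arrays of slide 3 (1.64 to 1.98) sit below all others.

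C1s, a protease that starts the classical pathway, had levels of -0.67, 0.41 and 0.71 (lowest, median, highest) in SED, -0.40, 0.33 and 0.56 in DETR and -0.37, 0.67 and 1.16 in TR, with the slide 3 arrays at the bottom of the first pair of groups. TR minus SED was 0.41 ± 0.14, with 0.37 within slide 2 and 0.62 within slide 3. TR minus DETR was 0.49 ± 0.19 (95% interval 0.10 to 0.88), with unadjusted p = 0.0156 and adjusted p = 0.444 in limma, and DETR minus SED was -0.07 ± 0.17. Without TR 2, TR 5, TR 7 and TR 8, TR minus SED was 0.18 and TR minus DETR was 0.21, and without the slide term they were 0.20 and 0.22.

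C1r, which cuts and activates C1s, had levels of 0.01, 0.38 and 0.74 in SED, -0.50, 0.27 and 0.36 in DETR and -0.48, 0.38 and 0.94 in TR. The medians of SED and TR were equal, and all ranges overlapped. DETR minus SED was -0.20 ± 0.14 (unadjusted p = 0.178, limma), with -0.16 within slide 1 and -0.34 within slide 3. TR minus SED was 0.02 ± 0.12, and TR minus DETR was 0.21 ± 0.16 (unadjusted p = 0.193, limma).

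Serping1, the inhibitor of both proteases, showed more of the slide than of the group. Its level was 1.69, 3.12 and 3.34 (lowest, median, highest) in SED, 1.64, 3.01 and 3.26 in DETR and 1.66, 2.62 and 4.34 in TR. Every array of slide 3 lay at 1.64 to 1.98 and every other array at 2.89 or above, whatever its group. With slide in the model DETR minus SED was 0.01 ± 0.15, TR minus SED 0.23 ± 0.13 and TR minus DETR 0.22 ± 0.17. The highest value was that of TR 2, and without that array TR minus SED was 0.08 ± 0.08 and TR minus DETR 0.12 ± 0.10.

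C2, the partner that C1s cuts to form the classical C3-cleaving enzyme, was read by a probe with 1 spot per array. That probe gave -2.60, -1.80 and -1.52 (lowest, median, highest) in SED, -2.75, -2.17 and -1.70 in DETR and -2.88, -1.59 and 0.29 in TR. The ranges overlapped apart from TR 2, whose 0.29 stood well above the next TR array at -1.43. TR minus SED was 0.55 ± 0.26, against 0.30 ± 0.19 without TR 2 and -0.09 without TR 2, TR 5, TR 7 and TR 8. TR minus DETR was 0.75 ± 0.33 (unadjusted p = 0.0331, adjusted p = 0.482, limma), and it was 0.59 without TR 2 and 0.07 without those 4 arrays. The other C2 probe, with 2 spots, gave 0.22 ± 0.19 for TR minus SED and 0.61 ± 0.24 for TR minus DETR (unadjusted p = 0.0187). For DETR minus SED the probes gave -0.21 ± 0.30 and -0.39 ± 0.22.

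Cfb, the neighbour of C2 and its counterpart in the alternative pathway, showed no difference between groups larger than its SE. Its values were -0.01, 0.28 and 0.78 (lowest, median, highest) in SED, -0.01, 0.36 and 0.79 in DETR and 0.08, 0.34 and 0.93 in TR. The differences were 0.13 ± 0.14 for DETR minus SED, 0.11 ± 0.12 for TR minus SED and -0.02 ± 0.16 for TR minus DETR. The authors' deposited table differs from this on 1 array. There Cfb is 13.88 on TR 5 and 9.17 to 10.14 on the other 23 arrays (log2), and the TR minus DETR difference fitted to that table was 0.59. The probe had 2 spots on TR 5, of which 1, with a processed signal of 6320, was marked as an outlier by the scanner software and left out here, and the other had 205.

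C3, on which every pathway converges, was the 1 gene of the 9 not well above background on every array. Its levels were -4.97, -4.68 and -4.11 (lowest, median, highest) in SED, -5.22, -4.53 and -3.80 in DETR and -5.05, -4.03 and -3.48 in TR, with wide overlap. DETR minus SED was 0.19 ± 0.25, TR minus SED 0.28 ± 0.22 and TR minus DETR 0.09 ± 0.28. Of the 5 arrays on which it was not well above background, 3 were TR arrays of slide 3, where the C3 values (-4.15 to -3.48) were among the highest. The correlation of these values with those in the authors' deposited table was 0.65 over the 24 arrays, against 0.94 or above for the probes of the other genes except Cfb (0.49).

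**Figure D2:**
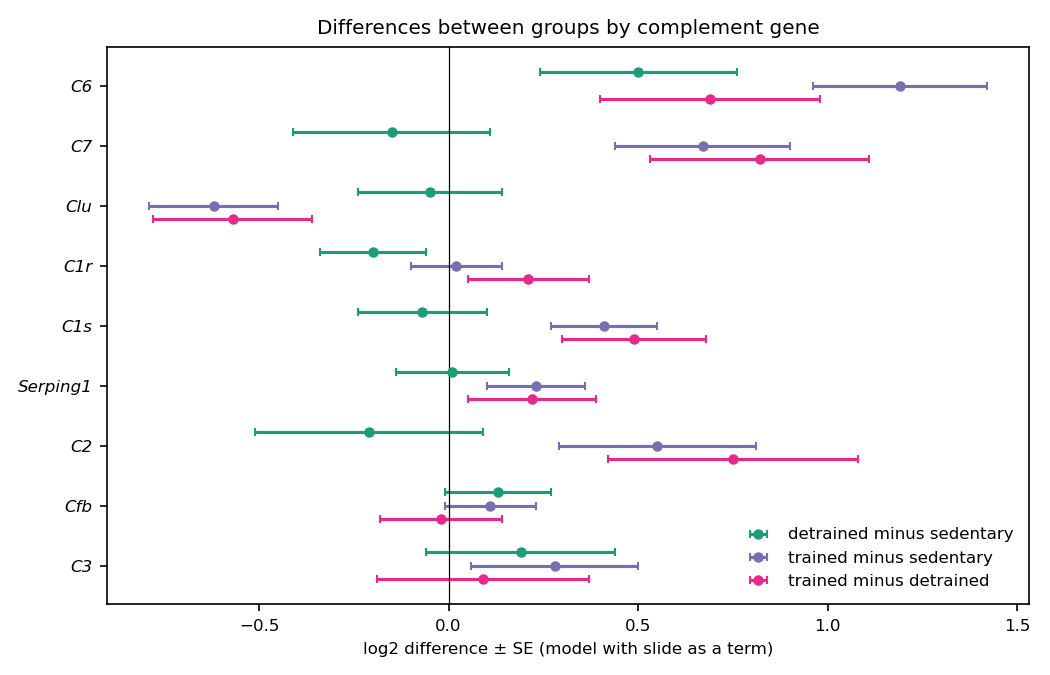
Log2 difference ± SE (horizontal axis) between groups for each of the 9 genes, from the model with slide as a term, with colours for the 3 comparisons. C6 has the highest TR minus SED value (1.19) and Clu the lowest (-0.62), while the DETR minus SED values of the other 8 genes lie between -0.21 and 0.19.

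Between detrained and sedentary muscle none of the 9 genes passed the test. Of the 9, 4 were higher and 5 lower, with a median of -0.05 against 0.03 over all 20324 features, of which 58% were higher and 42% lower. No member had an unadjusted p under 0.05, where 3.95% of all features had one, and no feature passed after Benjamini-Hochberg adjustment in limma (0% of features, 802 at an unadjusted p under 0.05). The adjusted p was 1 for every member. The lowest bound of a 95% interval was that of C2 (-0.82 to 0.41) and the highest that of C6 (-0.04 to 1.04).

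Between trained and detrained muscle 7 of the 9 genes were higher and 2 lower, with a median of 0.22 against -0.03 over all features, of which 45.5% were higher and 54.5% lower. C6, C7, C1s and C2 on the higher side and Clu on the lower had an unadjusted p under 0.05, which is 5 of 9 where 9.93% of all features (2018) had one. None passed after adjustment over all features in limma, where the smallest adjusted p of a member was 0.423 and 0% of features passed. The 5 became 0 when only the TR and DETR arrays entered the fit, or slide 3 alone, where the groups meet on 6 arrays. They became 3 without SED 2, without DETR 8 or without TR 5, and 2 without TR 2, TR 5, TR 7 and TR 8. C6 and Clu were noted from the same TR arrays, so this count is no independent support for them.

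Trained against sedentary muscle is described only. There 8 of 9 genes were higher, with a median of 0.28 against 0.01 over all features, of which 52.8% were higher and 47.2% lower. Without TR 2, TR 5, TR 7 and TR 8, 5 of 9 were higher. No feature passed after adjustment (0%), and 10.4% of features (2120) had an unadjusted p under 0.05. The 3 comparisons share arrays in pairs, so their values for a gene are not independent of each other.

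Other genes of the cascade were read from a list of 46, of which 3 (C4b, Colec11 and Cd59) had no probe and 12 were under the filter on dim probes. The latter were C4bpa, C5, C8a, Mbl2, Colec10, Cr2, C5ar2, Itgax, Vsig4, Csmd1, Cpn1 and Cpn2, so C5, the first part of the attack complex, was not measured. Of the 31 measured genes, 15 were higher and 16 lower in DETR than in SED, with a median of -0.01 and none at an unadjusted p under 0.05. Of all features, 58% were higher in that comparison and 3.95% had such a p. The smallest p values there were those of C1rl, a protease like C1r (0.32 ± 0.16), the pore-forming C9 (0.39 ± 0.22), the lectin pathway protease Masp1 (-0.39 ± 0.26) and Itgb2, a chain of the complement receptors on leukocytes (0.24 ± 0.19).

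In TR against DETR 22 of the 31 were higher and 9 lower, with a median of 0.19; 5 of the higher and 1 of the lower had an unadjusted p under 0.05, and none passed after adjustment in limma (smallest adjusted p = 0.356). Of all features, 45.5% were higher in that comparison and 9.93% had such a p. Factor D (Cfd), the protease that cuts factor B and a major product of adipocytes, was higher by 0.87 ± 0.27, and C4a, the substrate of C1s, by 0.65 ± 0.22. Masp1 was higher by 0.74 ± 0.29 with slide in the model, while its plain means were -0.52 in DETR and -0.49 in TR. C1rl, well above background on 19 of 24 arrays, was lower by 0.46 on the log2 scale with SE 0.18 (difference -0.46 ± 0.18). C1qc, a chain of C1q, was higher by 0.68 ± 0.30 and also under that p; it is named after its values were seen. The other C1q chains differed by 0.31 ± 0.19 (C1qb) and 0.14 ± 0.47 (C1qa). In TR against SED, given as a description, 22 were higher and 9 lower, where 52.8% of all features were higher. These were led by C4a (0.55 ± 0.17), the lectin Fcna (0.65 ± 0.22), Cfd (0.58 ± 0.21) and the membrane regulator Cd46 (0.91 ± 0.34).

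The other measured genes of the attack complex were C8b, C8g and C9. TR minus SED was -0.08 ± 0.16 for C8b, -0.15 ± 0.15 for C8g and -0.10 ± 0.19 for C9, beside 1.19 ± 0.23 for C6, chosen in view of that value, and 0.67 ± 0.23 and 0.09 ± 0.19 for the probes of C7. TR minus DETR was -0.25 ± 0.21, 0.03 ± 0.19 and -0.49 ± 0.24 for C8b, C8g and C9. The differences between these genes, which are named after their values were seen, were not tested. Cd55 and Cd59b, which protect cells from complement, differed by 0.05 ± 0.11 and 0.06 ± 0.09 between TR and SED. For the membrane regulator Cd46 that difference was 0.91 ± 0.34, with 0.42 within slide 2 and 1.40 within the dimmer slide 3. Its mean level was low, at -4.24 in SED and -2.93 in TR.

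**Figure D3:**
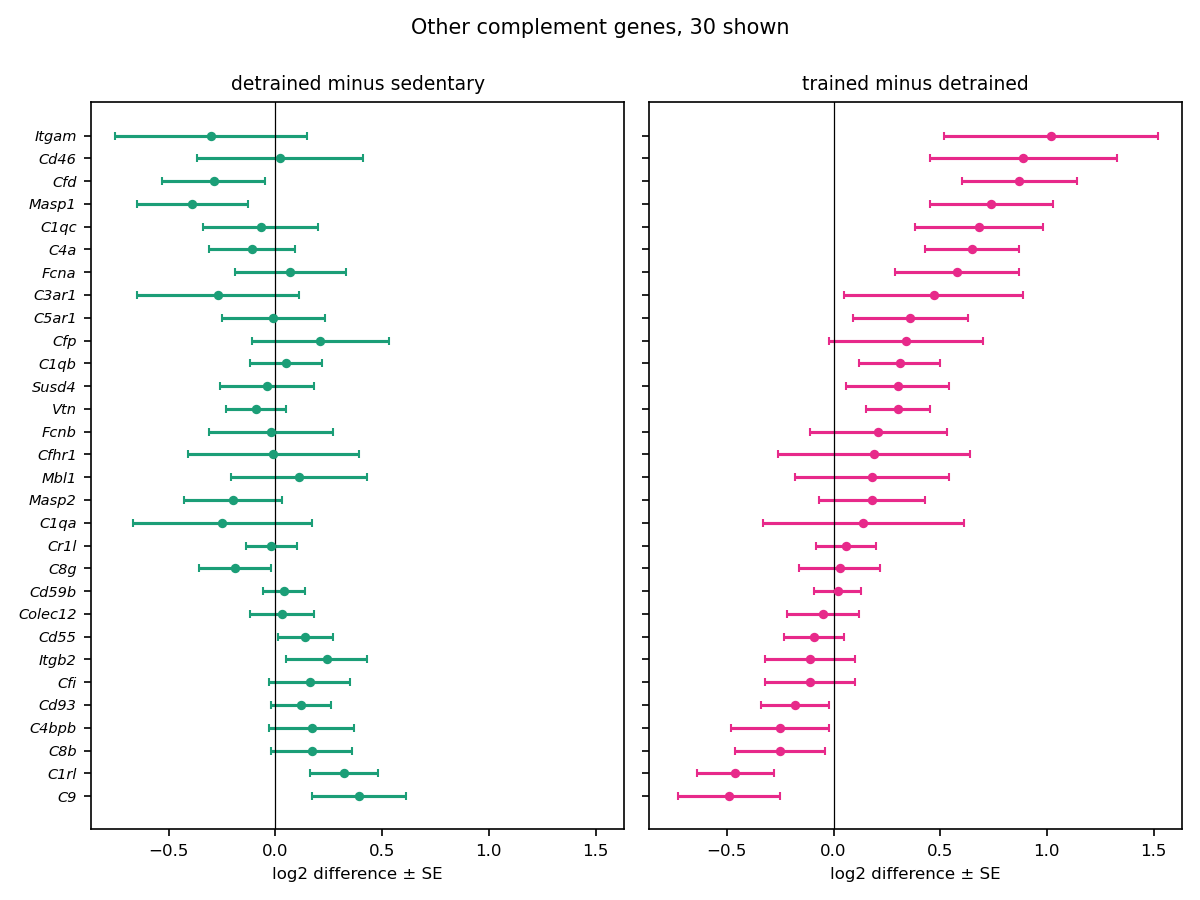
Log2 difference ± SE (horizontal axis) of 30 of the 31 other measured complement genes for DETR minus SED (left) and TR minus DETR (right), ordered by the right panel. In the right panel 21 genes lie above 0, Cfd at 0.87 among them, and C9 (-0.49) and C1rl (-0.46) lie lowest, while the left panel has 15 above 0 and 15 below.

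Markers of cell types were read beside these genes, and their part in the results was not tested. Of 12 macrophage markers, 11 were measured (Fcgr3a was not), and 9 of 11 were higher in TR than in DETR with a median of 0.53, 6 of them at an unadjusted p under 0.05, where 45.5% of all features were higher and 9.93% had such a p. Examples are the resident macrophage receptors Lyve1 (0.78 ± 0.25) and Cd163 (0.78 ± 0.34), whereas Cd68 (-0.19 ± 0.18) and Csf1r (0.04 ± 0.24) were not higher beyond their errors. The summed macrophage level ran from 2.65 to 3.08 in SED, 2.19 to 2.88 in DETR and 2.33 to 3.79 in TR (log2 of the summed signals). Of 9 adipocyte markers 8 were measured, 7 of them higher in TR than in DETR with a median of 0.79. Among these were Pck1 (2.23 ± 0.64, well above background on 13 of 24 arrays), Adipoq (1.20 ± 0.46) and Cfd, which is also on the wider complement list. Lipe (0.13 ± 0.29) and Plin1 (0.34 ± 0.30) were higher by less or little more than their errors, and Fabp4 (-0.04 ± 0.23) was the 1 lower. The summed adipocyte level ran from 2.17 to 3.39 in SED, 2.10 to 3.34 in DETR and 2.28 to 4.00 in TR.

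Of 13 measured fibroblast and adipogenic progenitor markers, 4 were higher and 9 lower in TR than in DETR, with a median of -0.20. An unadjusted p under 0.05 was seen for 4 of the 13 in limma. These were Dcn (0.78 ± 0.18) and Lum (0.55 ± 0.24), both higher, and Col3a1 (-0.56 ± 0.20) and Cd34 (-0.86 ± 0.19), both lower. Of 10 endothelial markers 7 were higher, with a median of 0.12 and 0 at such a p in limma. Of all features, 45.5% were higher in that comparison and 9.93% had such a p.

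Fast fibre markers were lower in TR than in SED in 6 of 6 (median -2.30), where 47.2% of all features were lower. Their differences had wide errors and ran from -2.71 ± 1.22 (Myh1) to -0.93 ± 0.73 (Myh4). The summed fast fibre level was 1.03 to 9.43 in SED, 6.75 to 8.70 in DETR and 1.65 to 8.86 in TR. Tendon markers were lower in 7 of 8, with a median of -0.87 for TR minus SED. Their differences, TR minus SED, ran from -1.41 ± 0.92 (Kera) to 0.19 ± 0.19 (Prg4). For DETR minus SED 6 of 8 were also lower (median -0.73), where 42% of all features were. For TR minus DETR their median was -0.14. Of 6 hepatocyte markers 3 were measured. Apoa1 was well above background on 0 arrays and Alb and Fgb on 3 each, while Ttr, Serpina1 and Ahsg were above it on 18, 22 and 24.

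Across the 24 arrays C1r, C1s and C7 varied together, and C2 varied with C1r and C1s. With group and slide means removed, C1s correlated with C7 at r = 0.69 and with C1r at 0.66, and C1r with C7 at 0.51. C2 correlated with C1s at 0.56, with C1r at 0.53 and with Serping1 at 0.70. With slide means alone removed, C2 with Serping1 was 0.74 and became 0.34 without TR 2. Likewise C1s with C7 went from 0.80 to 0.75 and C1s with C2 from 0.68 to 0.62. C1r with C1s went from 0.60 to 0.52 and C1r with C7 from 0.49 to 0.37. C6 and Clu correlated at -0.66 with slide means removed and at -0.38 with group means removed too. C6 with C7 was 0.44 and 0.12 in the same order. The points share arrays, scaling and, within each chunk of muscle, its mix of cells, so these values are descriptions.

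Against the mean of each marker list, with slide means removed, C1r and C1s each followed macrophage markers at 0.70, C2 at 0.66, C7 at 0.63 and C6 at 0.54. Rank correlations ordered these genes differently, with Spearman's rho 0.71 for C6, 0.56 for C2, 0.47 for C1s, 0.41 for C7 and 0.39 for C1r. Cfb and C3 did not follow them (0.04 and 0.07). C7 and C1s followed adipocyte markers at 0.75 and 0.69, and C2 followed slow fibre markers at 0.75, which was 0.49 without TR 2. C6 went against the fast fibre markers (-0.64) and Clu with them (0.47), and C7 went against the tendon markers (-0.63). Group means were not removed here. C6 and Clu had been noted for a difference between groups, so their values also hold that difference and are no independent support.

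**Figure D4:**
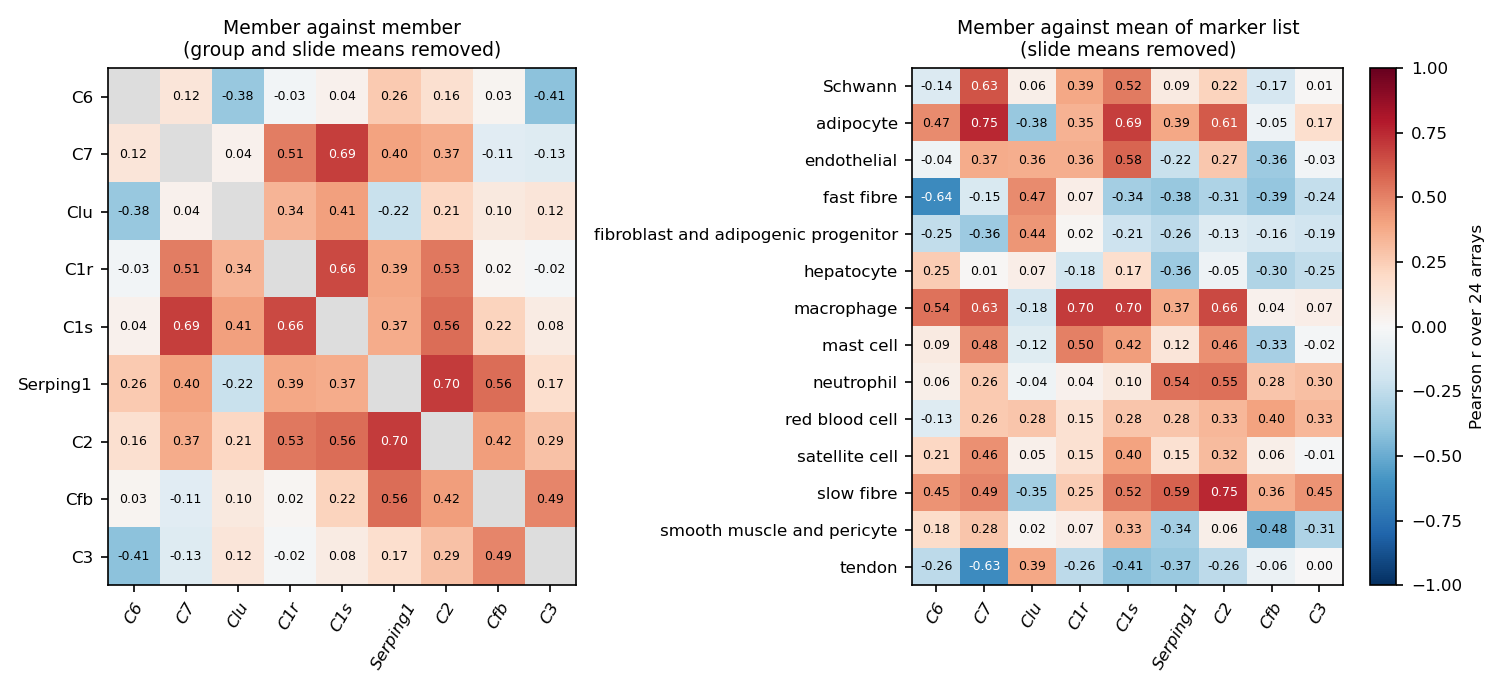
Pearson correlation over 24 arrays (colour and printed value) between the 9 genes with group and slide means removed (left) and between each gene and the mean of each marker list with slide means removed (right). On the left C1r, C1s and C7 lie at 0.51 to 0.69 with each other, and C2 lies at 0.56 with C1s and 0.53 with C1r. On the right, where group differences remain, C6 is lowest with fast fibre markers (-0.64) while Cfb and C3 are near 0 with macrophage markers.

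The genes whose values were most like those of C6 over the 24 arrays, with slide means removed, were Irgq (r = 0.83), L3mbtl3 (0.79), Ms4a6bl1 (0.78), Hnrnpa1 (0.78) and Itpa (0.74), and the most opposite were Mdc1 (-0.87) and Rrm2 (-0.76). For Clu they were Serpinf2 (0.74), Pmepa1 (0.74), Bcl2l11 (0.71), LOC102549710 (0.70) and Hspa1l (0.69), with Adamtsl1 (-0.84) and Hsbp1l1 (-0.84) most opposite. Serpinf2 and Bcl2l11 were well above background on 16 and 12 of 24 arrays. Group means were left in for both lists, so the correlations also hold the difference between groups for which C6 and Clu had been noted.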

How the data were processed

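Total RNA (0.1 ug) from 24 rats was labelled with Cy3 and hybridised to 1 one-colour Agilent array each, per the labels. Spot intensity came from Agilent Feature Extraction (11.5.11.1 in the submitters' processing notes, 11.5.1.1 in the headers), which subtracted background and corrected within arrays, per the file headers. A second deposited table, of log2 values (median 6.26), served as an alternative; its tool is not stated in any label or header.

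Of 62976 spots per array, the 4259 controls were dropped, and none was saturated. The log2 processed signal minus the array's 75th percentile was taken, spots marked as outliers were dropped (14 of 1080 spots of the 9 genes over all arrays), and spots of a probe averaged. The probe with the highest mean stood for its gene. A filter kept the 20324 features (15869 named) that were well above background, in at least 50% of their kept spots, on 8 or more of 24 arrays. Names came from RefSeq (GRCr8) by accession or from the files. The number of arrays limits the precision.

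All arrays were fitted together by limma 3.58.1 under R 4.3.3 on group plus slide (19 residual and 2.87 prior degrees of freedom). The Benjamini-Hochberg adjustment ran over all features at a threshold of 0.05. Other complement genes are named by the rule of the 4 smallest p per comparison. The values of 1 gene of that list are not reported here. The fit was tested on simulated data. The members and gene lists were chosen with earlier results of these data known. Sample titles gave groups and replicate numbers; same-numbered arrays were not paired. Alternatives were another normalization (quantile), normexp background (offset 50, on median spot signals), the authors' table, other filters, slide left out, random or taken singly, the replicate block, array weights, only the groups compared, and leaving out arrays. Counts of members at an unadjusted p under 0.05 were added after the data were seen.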

Additional observations from a re-analysis of the deposited data

Results flagged for a closer look

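In the trained group the main C2 probe, with 1 spot per array, read 0.29 on TR 2, and the nearest of the other 7 trained arrays read -1.43. That gap took up 0.54 of the group's whole range, above Dixon's 95% critical value for 8 samples. TR 2 also had the largest spread between spots of a probe (24.4%), and the other C2 probe was also highest there among the trained arrays. In the detrained group the other C2 probe read -3.13 on DETR 8 against -2.54 on the nearest array, again a gap of 0.54 of the range. The main C2 probe read -2.49 on DETR 8, within the range of its group. In all, 33 sets of a probe and a group were examined, and chance marks about 1 in 20.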

How the results depend on the processing

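With slide in the model 0 features were called in each comparison; at an unadjusted p under 0.05 there were 802 (DETR minus SED), 2120 (TR minus SED) and 2018 (TR minus DETR). For TR minus SED the count was 2 with normexp, 1 with the authors' table, 4 with the replicate block, 102 with array weights, 2 without TR 2, TR 5, TR 7 and TR 8, 1 without slide 3 and 0 to 3 with 1 array left out (3 without SED 3 or TR 6). For TR minus DETR it was 35 with the replicate block, 160 with array weights, 1 with only the groups compared, 1 without those 4 arrays and 0 to 14 with 1 array left out (14 without TR 6, 3 without TR 2). For DETR minus SED it was 139 with array weights, 1 without those 4 arrays and 0 with 1 array left out. Same-numbered arrays correlated at -0.41 to 0.85 over 24 pairs, 20 of them over 0.1, and 5 of 24 arrays correlated best with their own number, so the numbers are not read as pairs.

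Members higher for DETR minus SED were 2 with the authors' table, 7 on slide 3 alone and 3 to 5 with 1 array left out. For TR minus SED they were 5 without the 4 arrays, 6 with array weights or no slide term and 7 to 8 with 1 left out. For TR minus DETR they were 6 with the replicate block, array weights or the 4 arrays left out. There they were 8 with normexp or the authors' table, and 7 to 8 with 1 left out. With the filter on all arrays, which C3 did not pass, 6 of 8 genes were higher for TR minus DETR. Members at an unadjusted p under 0.05 were, for DETR minus SED, 1 with the replicate block, array weights, only the groups compared or the 4 arrays left out, and 0 to 1 with 1 left out (1 without SED 8, DETR 2 or TR 5). For TR minus DETR they were 3 without the slide term, 0 with only the groups compared, 0 on slide 3, 2 without the 4 arrays, 3 without slide 3 and 3 to 5 with 1 left out.

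Of the values of single genes, 961 kept their direction and side and 54 reversed. Outside TR minus SED, where member values carry no test, 1 newly passed (Clu with array weights, TR minus DETR). Reversed for DETR minus SED were C1s on slide 3 (0.25), C7 without the slide term (0.12) and on slide 3 (0.02), Cfb in the authors' table (-0.04), Clu with only the groups compared (0.07), on slide 3 (0.32) and without the 4 arrays (0.05), and Serping1 with array weights (-0.13), the authors' table (-0.01), no slide term (-0.06), normexp (0.00), quantile normalization (0.00), only the groups compared (-0.07), slide 1 alone (-0.15), without the 4 arrays (-0.04) and without slide 3 (-0.15). For TR minus DETR they were C3 with array weights (-0.42), the replicate block (-0.11), without the 4 arrays (-0.03) and without slide 3 (-0.42), Cfb in the authors' table (0.59), without the slide term (0.06), with normexp (0.05) and without slide 3 (0.08), and Serping1 without the slide term (-0.08). For TR minus SED they were C1r with array weights (-0.10), the authors' table (-0.03), no slide term (-0.12), slide 3 alone (-0.13) and without the 4 arrays (-0.14), C2 (-0.09) and Cfb (0.00) without the 4 arrays, C3 with array weights (-0.06) and Serping1 without the slide term (-0.14). With 1 array left out the reversing ranges were -0.16 to 0.00 (C1s) and -0.08 to 0.10 (Serping1) for DETR minus SED, -0.05 to 0.08 (C1r) for TR minus SED, and -0.17 to 0.19 (C3) and -0.09 to 0.02 (Cfb) for TR minus DETR. The causes were not tested. C6 in all 3 comparisons, and Clu, C7 and C1s in both comparisons with TR, kept their direction throughout. So did C1r and C2 in both comparisons with DETR, and C3 in DETR minus SED. C3 has no value under the filter on all 24 arrays. Normexp moved the median of all features for TR minus SED to 0.15. The C3 probe was not well above background on 5 arrays, which limits its values.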
